A study of Bos taurus with 4 samples.

Results

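The gluteus, a muscle of the rump, was compared with 3 other skeletal muscles of the same cattle through its noncoding candidate transcripts. Gluteus is 1 of the 4 libraries of the study, and 20765 of the 63845 transcripts listed for any muscle were listed for it. Levels were taken in FPKM, a level per length, as fragments for each kilobase after scaling to a total for each library. The gluteus level of each transcript was set against the median of 3 others. These were longissimus thoracis, which runs along the back, scapula muscle, from the shoulder blade, and intercostal muscle, between the ribs. Below they are called longissimus, scapula and intercostal. Transcripts were matched on their full identifier, and one that was not listed for a muscle entered counts as 0. The difference is given as log2((FPKM + 1)/(median of the other 3 + 1)), called the log2 ratio, which shrinks differences between low levels. A transcript was called higher or lower in gluteus where the log2 ratio reached 1 or -1, a 2-fold difference, and any library held 1 FPKM or more. The range in brackets after a log2 ratio is its lowest and highest value when each of the other 3 muscles in turn was left out of the median. No log2 ratio is given where the median of the other muscles or the gluteus level was not listed.

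All 4 muscles came from the same 3 unrelated female Herefords, a beef breed, 18 months old, healthy, fattened in a common feedlot on corn silage and sampled at slaughter, and no group carried a treatment. Total RNA of the 3 animals was mixed in equal amounts into 1 pool for each muscle, so each muscle has 1 library and no spread between animals can be seen. Differences are therefore described by size, no p-values are given, and what belongs to gluteus cannot be told apart from what belongs to its library. The study set out to catalogue noncoding transcripts of these muscles. Its protein-coding genes were not analysed here.

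Long noncoding transcripts are sorted by where they lie: between genes, within an intron, or across an exon of a gene on its opposite strand (antisense). Intronic single-exon pieces can come from the unspliced RNA of the host gene as well as from separate transcripts, and pieces at a small RNA gene can belong to its precursor. The gluteus is a large propulsive limb muscle of mixed fibre type, longissimus extends the spine, and intercostal muscle works in breathing. Skeletal muscles keep differences in position genes, fibre type and metabolism after development, and immediate early genes respond within minutes to contraction, stress and cooling.

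Gluteus had the fewest recovered reads. These are reads on listed transcripts only, so the sequencing depth of the whole libraries is not known from them. Reads were recovered from the FPKM values as whole numbers of reads and came to 1136247 in gluteus, 1330224 in intercostal, 1512128 in scapula and 2110057 in longissimus. On a piece of 300 nucleotides 1 read was worth 3.01 FPKM in gluteus and 1.56 in longissimus, and the median listed transcript had 10 reads in gluteus and 16 in longissimus. Counts of transcripts lower in gluteus, or not listed for it, move with this number of reads, and the part it plays in them was not tested. Brackets after a level give its exact 95% Poisson interval, which covers counting error only, since PCR copies and animals are not in it. As a check of the label, 8 of 20 genes that define skeletal muscle had a transcript (ACTN2, KBTBD10, MYF6, MYH1, MYH7, NEB, RYR1 and TTN), and 17 of the 19 transcripts at them were listed for gluteus. Each of these transcripts is noncoding and speaks only indirectly of the gene. No source used here says whether the libraries keep strand, so reads opposite a gene cannot be told apart from reads of the gene itself.

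By size, 11853 of 63839 transcripts (18.6%) were higher in gluteus and 15114 (23.7%) were lower. Intergenic transcripts counted 6589 higher (18.9%) and 7719 lower (22.1%) of 34873. Intronic transcripts counted 4745 higher (17.9%) and 6928 lower (26.2%) of 26451, the largest excess of lower calls of the 3 classes. Antisense transcripts went the other way, with 519 higher (20.6%) and 467 lower (18.6%) of 2515. The median of the other 3 is 0 wherever fewer than 2 of them list a transcript. With 1 other muscle left out, the median of the remaining 2 is their mean, which a listing in 1 of them lifts above 0. Lower counts over all transcripts therefore rose whichever muscle was left out, to 33846 to 41447, and the higher count was 9229 to 10167. Antisense transcripts then counted 455 to 484 higher and 741 to 798 lower, so their excess of higher calls turned under that rule. Where transcripts not listed everywhere are counted, ranges with 1 muscle left out mix this change of rule with the muscle itself.

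The 7188 transcripts listed in all 4 muscles give a steadier base, with 1250 higher in gluteus (17.4%) and 1808 lower (25.2%). Their median log2 ratio was -0.08. Intronic transcripts stood lowest, with a median of -0.36, quartiles of -1.54 and 0.64, and 336 higher against 622 lower of 1818. Intergenic transcripts had a median of -0.08 with 710 higher and 1006 lower of 3950. Antisense transcripts had a median of 0.12 with 204 higher and 180 lower of 1420. With 1 other muscle left out, the intronic counts were 234 to 304 higher and 659 to 736 lower and kept their order, whereas the antisense counts were 182 to 205 higher and 193 to 219 lower. The direction of the antisense class as a whole is thus not fixed by these libraries. Transcripts called lower had few reads in gluteus, a median of 4, against 33 for those called higher. The plot of gluteus levels against the other muscles shows the 3 classes side by side.

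**Figure D1:**
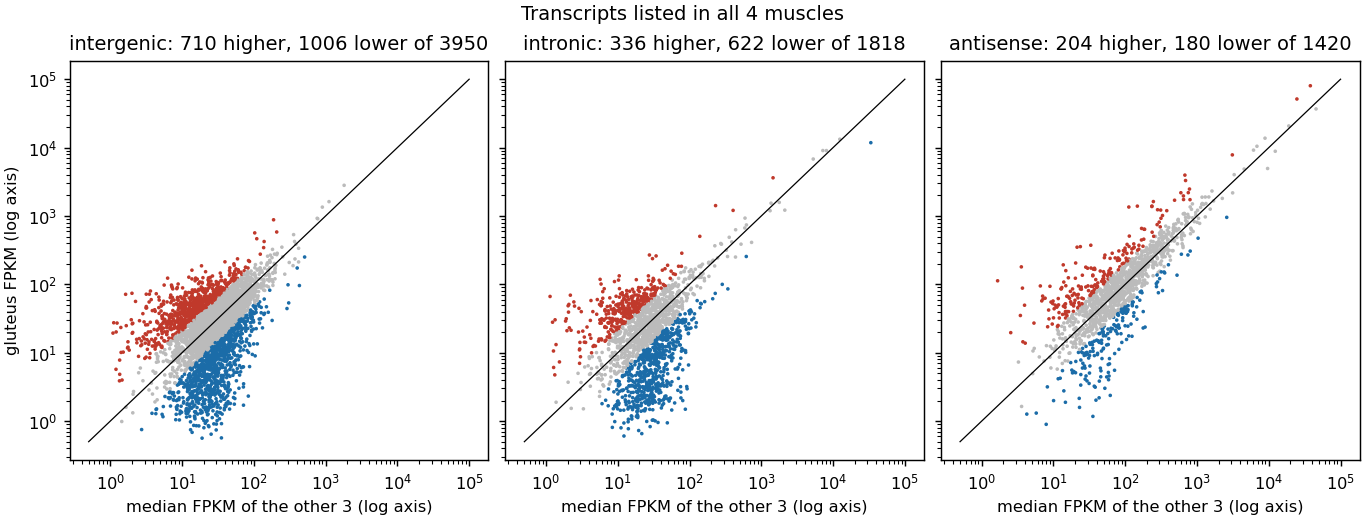
Gluteus FPKM (vertical log axis) against the median FPKM of the other 3 muscles (horizontal log axis) for the 7188 transcripts listed in all 4 muscles, by class. Points are transcripts, red where gluteus was at least 2-fold higher, blue where it was at least 2-fold lower and grey between, and the line marks equal levels. The intronic cloud holds 336 red and 622 blue points, and the antisense cloud 204 and 180.

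The classes also took different shares of the reads. Antisense transcripts held 61.9% of gluteus reads, against 50.7% to 55.9% in the other muscles, intergenic transcripts 24.4% against 26.6% to 29%, and intronic transcripts 13.8% against 17.5% to 20.3%. Each share in gluteus lay outside the range of the other 3, with the antisense share above it and the other shares below it. Of the transcripts listed for gluteus, 3589 (17.3%) were listed for it alone, namely 2081 intergenic, 1431 intronic and 77 antisense. The share listed in a single muscle was 21.1% in intercostal, 32.9% in scapula and 41.7% in longissimus. Conversely, 2527 transcripts were listed in each other muscle and not in gluteus, of which 1252 were intergenic, 1214 intronic and 61 antisense.

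No single muscle was much the closest to gluteus. Among the transcripts listed in all 4 muscles, 52.1% lay within 2-fold of gluteus in scapula, 52.1% in intercostal and 47.4% in longissimus. Of the 1250 called higher there, 908 were not 2-fold above every other muscle, and the muscle with the highest level besides gluteus was longissimus for 407 of these, scapula for 270 and intercostal for 231. A stricter call asked for a level 2-fold beyond each of the other 3 muscles. By it 6064 transcripts (9.5%) were above each of them and 3254 (5.1%) were below each, a direction that the call itself fixes. A transcript that any other muscle does not list cannot be below each, whereas 3589 were listed for gluteus alone. Among the 7188 listed in all 4 muscles the order turned, with 342 above each other muscle and 799 below each.

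Antisense transcripts carried the most reads and give the firmest single values. Of 1863 with 20 or more reads in a library, 341 (18.3%) were higher in gluteus and 354 (19%) were lower. Of the 1328 with 20 or more reads in gluteus itself, 119 lay 2-fold above each other muscle. The transcript opposite SHISA2, a gene of an adaptor that tempers Wnt and FGF receptors, stood at 1127 (1059 to 1198) FPKM in gluteus, 448 (412 to 486) in scapula and 109 in intercostal and was not listed for longissimus, with a log2 ratio of 3.36 (2.01 to 4.35). That opposite MAF, a leucine zipper transcription factor, stood at 384 (361 to 408) FPKM in gluteus, 142 (132 to 153) in longissimus, 106 in scapula and 87.8 in intercostal (1.85 in log2, 1.62 to 1.97). Both were picked after their values were seen, and in both the gluteus interval lay clear of every other muscle.

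DNAJB5, LPIN1 and CCDC6 are further examples, picked after their values were seen. The transcript opposite DNAJB5, a heat shock co-chaperone, stood at 658 (599 to 721) FPKM in gluteus, 169 in longissimus, 89.8 in scapula and 195 (166 to 228) in intercostal, with a log2 ratio of 1.95 (1.85 to 2.34). Opposite LPIN1, the phosphatidate phosphatase of lipid synthesis whose loss damages muscle, it stood at 1016 (980.04 to 1053) FPKM in gluteus, 404 (388 to 421) in longissimus, 210.4 in scapula and 331 in intercostal, with a log2 ratio of 1.62 (1.46 to 1.90). The one opposite CCDC6, a coiled-coil protein of the DNA damage response, stood at 639 (616 to 662) FPKM in gluteus, 316 (305 to 328) in longissimus, 186 in scapula and 121 in intercostal, with a log2 ratio of 1.77 (1.34 to 2.05). Gluteus stood above all 3 other muscles in each case, which the choice of examples fixed.

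A second group, picked after its values were seen, was low in longissimus as well as high in gluteus. The transcript opposite RBM24, a splicing regulator of heart and skeletal muscle, stood at 508 (458 to 562) FPKM in gluteus, 3.53 in longissimus, 201 (174 to 231) in scapula and 114 in intercostal, with a log2 ratio of 2.15 (1.68 to 3.09). That opposite KLHL34, a kelch protein, stood at 1738 (1661 to 1818) FPKM in gluteus, 0.952 in longissimus, 649 in scapula and 738 (692 to 786) in intercostal, with a log2 ratio of 1.42 (1.32 to 2.41). At MAPKAPK2, a kinase downstream of the stress kinase p38, the antisense transcript stood at 445 (414 to 479) FPKM in gluteus, 4.72 in longissimus, 168 in scapula and 199.8 (180.5 to 221) in intercostal, with a log2 ratio of 1.40 (1.27 to 2.35). Longissimus was the lowest muscle for each of these 3, and gluteus the highest, which follows from how they were picked.

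By the naming rule, the antisense transcripts of largest log2 ratio 2-fold above every muscle, with 20 or more gluteus reads, were those at CACUL1, ST6GAL1, KCTD12, DCSTAMP and EML6, for which at least 2 other muscles listed nothing, so that the ratio is taken over 0. Transcripts with higher levels, such as those at SHISA2, KLHL34 and LPIN1, had smaller ratios. Opposite CACUL1, which takes part in cullin-based cell cycle control, the transcript stood at 456 (394 to 525) FPKM in gluteus, against 129.9 (102 to 163) in scapula, and was not listed for longissimus or intercostal. That opposite ST6GAL1, a sialyltransferase, and that opposite DCSTAMP, a membrane protein of cell fusion, were listed for gluteus alone, at 156 (98.0 to 237) and 117 (78.6 to 169) FPKM. Opposite KCTD12, an auxiliary subunit of GABA-B receptors, the transcript stood at 141 (104 to 187) FPKM in gluteus, against 25.9 (13.4 to 45.2) in scapula, and was not listed for longissimus or intercostal. Opposite EML6, a microtubule-binding protein, it stood at 110.1 (83.8 to 142) FPKM in gluteus, against 21.9 (12.5 to 35.5) in scapula, and was not listed for longissimus or intercostal. Each rests on 22 to 193 gluteus reads.

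On the lower side, 54 of the 1097 antisense transcripts with 20 or more reads in each other muscle lay 2-fold below all 3, and 5 of the 1097 were not listed for gluteus. A pair of those 5 lay opposite TIMP3, an inhibitor of matrix metalloproteinases. One (TCONS_00198754) stood at 49.0 (34.1 to 68.1) FPKM in longissimus, 77.0 (54.8 to 105) in scapula and 92.8 (66.6 to 126) in intercostal and was not listed for gluteus, and the other (TCONS_00198745) stood at 87.2 (71.2 to 106) FPKM in longissimus, 76.4 (58.8 to 97.6) in scapula and 30.1 (18.9 to 45.6) in intercostal and was not listed for gluteus. The remaining 3 lay opposite FRAS1, a protein of basement membranes, PRKAR2B, a regulatory subunit of protein kinase A, and AGFG1, a protein of nuclear export. The FRAS1 transcript stood at 20.03 (14.2 to 27.4) FPKM in longissimus, 66.6 (53.7 to 81.7) in scapula and 64.8 (51.2 to 80.9) in intercostal and was not listed for gluteus.

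Other antisense transcripts were listed for gluteus at a low level. The transcript opposite ABCA1, the cholesterol exporter, stood at 38.4 (32.3 to 45.4) FPKM in gluteus, 129.8 (121 to 139) in longissimus, 132 in scapula and 184 in intercostal, with a log2 ratio of -1.76 (-2.01 to -1.74). Opposite NUDT21, a subunit of the cleavage factor that chooses poly(A) sites, the transcript stood at 30.9 (23.0 to 40.7) FPKM in gluteus, 146 in longissimus, 104 (91.5 to 119) in scapula and 158 in intercostal, with a log2 ratio of -2.20 (-2.26 to -1.98). Opposite MLIP, a lamin-interacting protein of muscle, it stood at 25.2 (19.2 to 32.3) FPKM in gluteus, 74.99 (67.3 to 83.3) in longissimus, 93.7 in scapula and 80.0 in intercostal, with a log2 ratio of -1.63 (-1.75 to -1.59). At each of these 3 genes gluteus lay below all 3 other muscles, and its interval lay clear of theirs.

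TIMP3 as a whole held 39 antisense pieces, of which 27 were listed in longissimus, 29 in scapula, 15 in intercostal and 5 in gluteus. Of the 39, 2 were called higher and 21 lower in gluteus, and 2 higher and 27 to 36 lower with 1 other muscle left out. Most reads at this gene lay in a single piece (TCONS_00202312), which stood at 391 (369 to 415) FPKM in gluteus, 269.6 in longissimus, 534 (512 to 558) in scapula and 568 in intercostal. Its log2 ratio was -0.45. The deep piece was thus within 2-fold of the others while most short pieces beside it were missing from gluteus.

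Small nucleolar RNAs guide the chemical modification and cutting of ribosomal RNA, and those of the H/ACA box class, named SNORA, guide pseudouridylation. Transcripts at these genes were mostly higher in gluteus. Of 28 such transcripts at 22 genes, all of antisense class, 19 were higher and 3 lower, against 20.6% higher and 18.6% lower over the antisense class. With 1 other muscle left out these counts were 17 to 21 higher and 2 to 3 lower. Of the 19 with 20 or more reads in a library, 14 were higher and none was lower, and among the 14 listed in all 4 muscles 10 were higher and none lower, with a median log2 ratio of 2.53 against 0.12 for the antisense class. For 14 of those called higher the gluteus interval lay above the interval of each other muscle. The list was split from a wider one of small nucleolar RNAs after its values were seen.

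The values at single genes show gluteus apart from the rest. At SNORA69 the transcript stood at 349.5 (299 to 407) FPKM in gluteus, 20.5 in longissimus, 21.3 in scapula and 34.9 (21.3 to 54.0) in intercostal, with a log2 ratio of 3.97 (3.59 to 4.00). At SNORA50 it stood at 256 (223 to 291) FPKM in gluteus, 16.7 (10.2 to 25.8) in scapula and 9.59 in intercostal and was not listed for longissimus, with a log2 ratio of 4.60 (4.18 to 5.47). At SNORA36 it stood at 205 (169 to 246) FPKM in gluteus, 20.4 in longissimus, 58.8 (42.9 to 78.7) in scapula and 5.99 in intercostal, with a log2 ratio of 3.27 (2.34 to 3.86). The other muscles lay near each other at SNORA69 and differed more among themselves at SNORA36.

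SNORA17 had a pair of transcripts. The larger (TCONS_00031347) stood at 1624 (1503 to 1752) FPKM in gluteus, 83.2 in longissimus, 432 (379 to 489.9) in scapula and 247 in intercostal, with a log2 ratio of 2.71 (2.26 to 3.29), and the smaller (TCONS_00031346) stood at 173 (143 to 207) FPKM in gluteus, 12.2 in longissimus, 33.3 in scapula and 39.5 (27.0 to 55.7) in intercostal, with a log2 ratio of 2.34 (2.22 to 2.87). SNORA67 stood at 93.7 (68.1 to 126) FPKM in gluteus, 5.53 in longissimus, 20.3 (10.8 to 34.7) in scapula and 8.94 in intercostal, with a log2 ratio of 3.25 (2.60 to 3.52). SNORA28 stood at 129 (94.8 to 172) FPKM in gluteus, 11.4 in longissimus and 12.1 (4.43 to 26.3) in scapula and was not listed for intercostal, with a log2 ratio of 3.39 (3.35 to 4.28). Gluteus was the highest muscle in all 4.

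The abundant members differed less. SNORA53, the strongest transcript of the gluteus library, stood at 80244 (79201 to 81298) FPKM in gluteus, 70876 (70169 to 71589) in longissimus, 37510.00 in scapula and 37933 in intercostal, with a log2 ratio of 1.08 (0.56 to 1.09), and the lower values, under the 2-fold line, came without scapula or intercostal. SNORA38 likewise kept its call only with all 3 muscles or without longissimus, with a log2 ratio of 2.17 (0.51 to 2.23). At SNORA23 the transcript stood at 4020.3 (3793 to 4257) FPKM in gluteus, 2673 in longissimus, 4263 (4062 to 4471) in scapula and 3296 in intercostal, and at SNORA74 the larger one stood at 9183 (8799 to 9579) FPKM in gluteus, 197 in longissimus, 9977 (9634 to 10329) in scapula and 6128 in intercostal. Neither was called. The exception among the deep members was SNORA1, which stood at 1.65 (0.0417 to 9.18) FPKM in gluteus, against 27.8 (17.6 to 41.7) in scapula, and was not listed for longissimus or intercostal, so that its call as higher rests on 1 gluteus read and turned to -2.49 without longissimus or intercostal. The dot plot of H/ACA transcripts shows gluteus to the right of the other muscles in most rows.

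**Figure D2:**
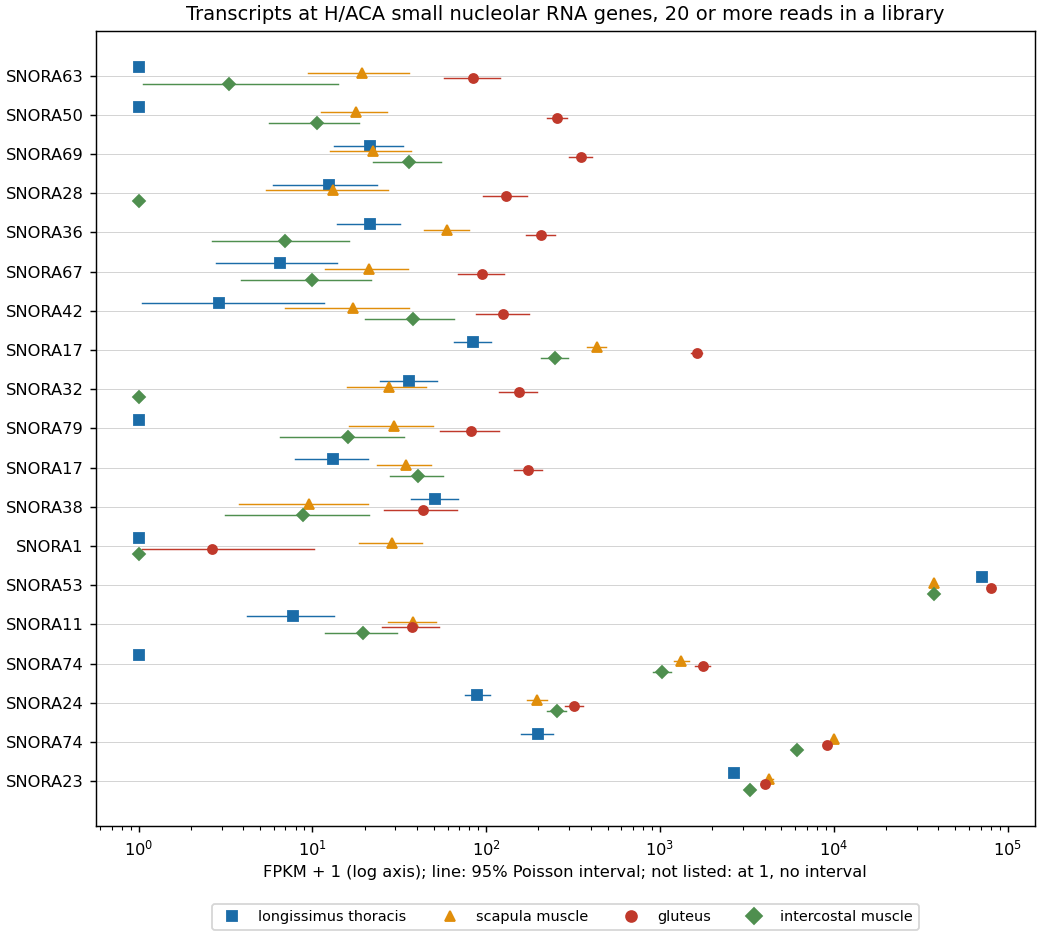
FPKM + 1 (log axis) of the 19 transcripts at H/ACA small nucleolar RNA genes with 20 or more reads in a library, 1 row a transcript, sorted by log2 ratio from the top. Symbols are the 4 muscles, lines are 95% Poisson intervals, and a transcript not listed sits at 1 with no interval. Gluteus (red circles) lies to the right of the other 3 muscles at SNORA69, SNORA50 and SNORA17, and between them at SNORA23 and at the larger SNORA74 transcript, where longissimus lies far to the left.

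Transcripts at the C/D box class, which guides ribose methylation, were counted in 2 lists. Those of the imprinted SNORD112 and SNORD113 cluster counted 1 higher (3.85%) and 8 lower (30.8%) of 26, beside 20.6% and 18.6% over the antisense class, and 1 to 2 higher and 10 to 17 lower with 1 other muscle left out. The other SNORD genes counted 5 higher (27.8%) and 3 lower (16.7%) of 18 (4 to 5 higher and 5 to 6 lower), shares near those of the class. Of the 26 cluster transcripts, 12 were listed in gluteus, 20 in longissimus, 20 in scapula and 11 in intercostal. Their summed level was 275 FPKM in gluteus, 626 in longissimus, 733 in scapula and 160 in intercostal, so intercostal was the lowest muscle. Of the 28 at SNORA genes, 26 were listed in gluteus, 17 in longissimus, 28 in scapula and 23 in intercostal. One SNORD113 transcript called lower (TCONS_00123780) stood at 19.2 (12.1 to 28.7) FPKM in gluteus, 44.6 in longissimus, 138 in scapula and 31.5 (23.0 to 42.1) in intercostal. U8, a C/D box RNA needed for ribosomal RNA maturation and picked after its values were seen, stood at 1352 (1256 to 1453) FPKM in gluteus, 112 in longissimus, 179.8 (151 to 213) in scapula and 67.7 in intercostal, with a log2 ratio of 3.58 (3.20 to 3.89). The antisense transcripts called higher had a median recovered length of 928.5 nucleotides and those called lower 772, against 1347.5 for those not called, among transcripts listed in all 4 muscles, and the part of length in these calls was not tested. Members of these families have near-identical copies, so the split of reads among copies is uncertain.

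Some other structured RNAs of the cell's core machinery were high in gluteus and low in longissimus. The transcript at RNase MRP, the RNA of an enzyme that cuts ribosomal RNA precursors, stood at 51353 (50575 to 52140.3) FPKM in gluteus, 3598 in longissimus, 31668 (31145 to 32198) in scapula and 24652 in intercostal, with a log2 ratio of 1.06 (0.87 to 1.86), the lowest value being without longissimus. A transcript at a signal recognition particle RNA gene (Metazoa_SRP, TCONS_00253156) stood at 3299.9 (3100.1 to 3509) FPKM in gluteus, 82.7 in longissimus, 899 (811 to 995) in scapula and 693 in intercostal, with a log2 ratio of 2.25 (2.05 to 3.09). Another at a gene of that family (TCONS_00136786) stood at 4947 (4663 to 5243) FPKM in gluteus, 186 in longissimus, 9630.3 (9289.5 to 9980.4) in scapula and 10745 in intercostal, and was not called. A transcript at a 5.8S ribosomal RNA gene (TCONS_00149942) stood at 703 (649 to 761) FPKM in gluteus, 334 (302 to 368) in scapula and 73.4 in intercostal and was not listed for longissimus, with a log2 ratio of 3.24 (1.78 to 4.22). Transcripts at small nuclear and housekeeping RNA genes counted 3 higher (27.3%) and 2 lower (18.2%) of 11 (1 to 4 higher and 4 to 5 lower with 1 other muscle left out), near the 20.6% and 18.6% of the antisense class.

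Transcripts opposite microRNA genes leaned the other way. MicroRNAs are cut from longer primary transcripts, and a piece across the hairpin may belong to that primary transcript, since strand is not known. Of 32 antisense transcripts at microRNA genes, 7 were higher in gluteus and 14 lower, beside 20.6% and 18.6% over the antisense class, and 4 to 8 higher and 14 to 18 lower with 1 other muscle left out. Of the 15 listed in all 4 muscles, 2 were higher and 7 lower, with a median log2 ratio of -0.51 against 0.12 for the class. The list was taken from a wider one of microRNA genes after its values were seen.

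Of the 14 called lower, 5 were not listed for gluteus, namely those at bta-mir-6527, bta-mir-125b-2, bta-mir-2355, bta-mir-29c and bta-mir-1296. The 3 with the most gluteus reads were at bta-mir-21, bta-let-7c and bta-mir-99a. At bta-mir-21, a microRNA tied to growth and fibrosis, the transcript stood at 15.6 (8.32 to 26.7) FPKM in gluteus, 104 in longissimus, 151 in scapula and 43.4 (31.4 to 58.5) in intercostal, with a log2 ratio of -2.66 (-2.95 to -2.17). At bta-let-7c, of the let-7 family that holds back growth genes, it stood at 58.6 (43.5 to 77.3) FPKM in gluteus, 124 (107 to 142) in longissimus, 284 in scapula and 159.6 in intercostal, with a log2 ratio of -1.43 (-1.90 to -1.26). At bta-mir-99a, encoded beside let-7c in mammals, it stood at 136 (98.6 to 184) FPKM in gluteus, 188 (155 to 225) in longissimus, 571 in scapula and 527 in intercostal, with a log2 ratio of -1.94 (-2.00 to -1.38). The 3 were lowest in gluteus and highest in scapula, although at bta-mir-99a the gluteus and longissimus intervals overlapped.

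The other 6 rest on 1 to 3 gluteus reads each and lay at bta-mir-125b-1, bta-let-7a-1, bta-let-7i, bta-mir-30b, bta-mir-3613 and bta-mir-331. At bta-mir-125b-1 the transcript stood at 2.02 (0.0513 to 11.3) FPKM in gluteus, 38.9 (27.4 to 53.6) in longissimus, 105 in scapula and 39.1 in intercostal, resting on 1 gluteus read. Those at bta-let-7a-1 and bta-let-7i stood at 3.36 (0.407 to 12.1) and 2.90 (0.597 to 8.47) FPKM in gluteus. In scapula they stood at 41.9 (29.0 to 58.5) and 63.0 (50.6 to 77.5) FPKM, and bta-let-7i was not listed for longissimus. At bta-let-7d, which was not called, the intervals overlapped, at 12.5 (5.97 to 22.9) FPKM in gluteus against 21.9 (14.0 to 32.6) in scapula.

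Of 4 transcripts at microRNA genes of muscle, 1 was called. At bta-mir-1-1, made in heart and skeletal muscle like bta-mir-133a, it stood at 28.1 (14.95 to 48.0) FPKM in gluteus, 25.3 (14.5 to 41.1) in scapula and 1.81 in intercostal and was not listed for longissimus, with a log2 ratio of 3.37 (0.998 to 3.93) that fell just under the 2-fold line without longissimus, and the gluteus and scapula intervals overlapped. At bta-mir-133a-2 it stood at 770.3 (743 to 798) FPKM in gluteus, 926 in longissimus, 722 (699 to 745) in scapula and 566 in intercostal. At bta-mir-133b it stood at 218 (195 to 243) FPKM in gluteus, 116 in longissimus, 172 in scapula and 273 (249.7 to 299) in intercostal, and at bta-mir-206, a skeletal muscle microRNA, it stood at 59.7 (50.9 to 69.6) FPKM in gluteus, 15.9 in longissimus, 33.6 in scapula and 40.3 (33.8 to 47.8) in intercostal, with a log2 ratio of 0.81 (0.68 to 1.24). None of these 3 was called, although at bta-mir-206 gluteus was the highest muscle and its interval lay clear of the others. Higher in gluteus were bta-mir-1306, which stood at 268 (216 to 328) FPKM in gluteus, 48.8 in longissimus, 52.2 in scapula and 78.9 (54.3 to 111) in intercostal, with a log2 ratio of 2.34 (2.01 to 2.38), and bta-mir-142, a microRNA of blood cells, which stood at 119 (86.7 to 159) FPKM in gluteus, 15.5 (6.68 to 30.5) in scapula and 4.43 in intercostal and was not listed for longissimus, with a log2 ratio of 4.46 (3.45 to 5.22). Leukocyte marker genes had 3 of their 12 transcripts higher and 4 lower, and their part in the bta-mir-142 value was not tested.

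**Figure D3:**
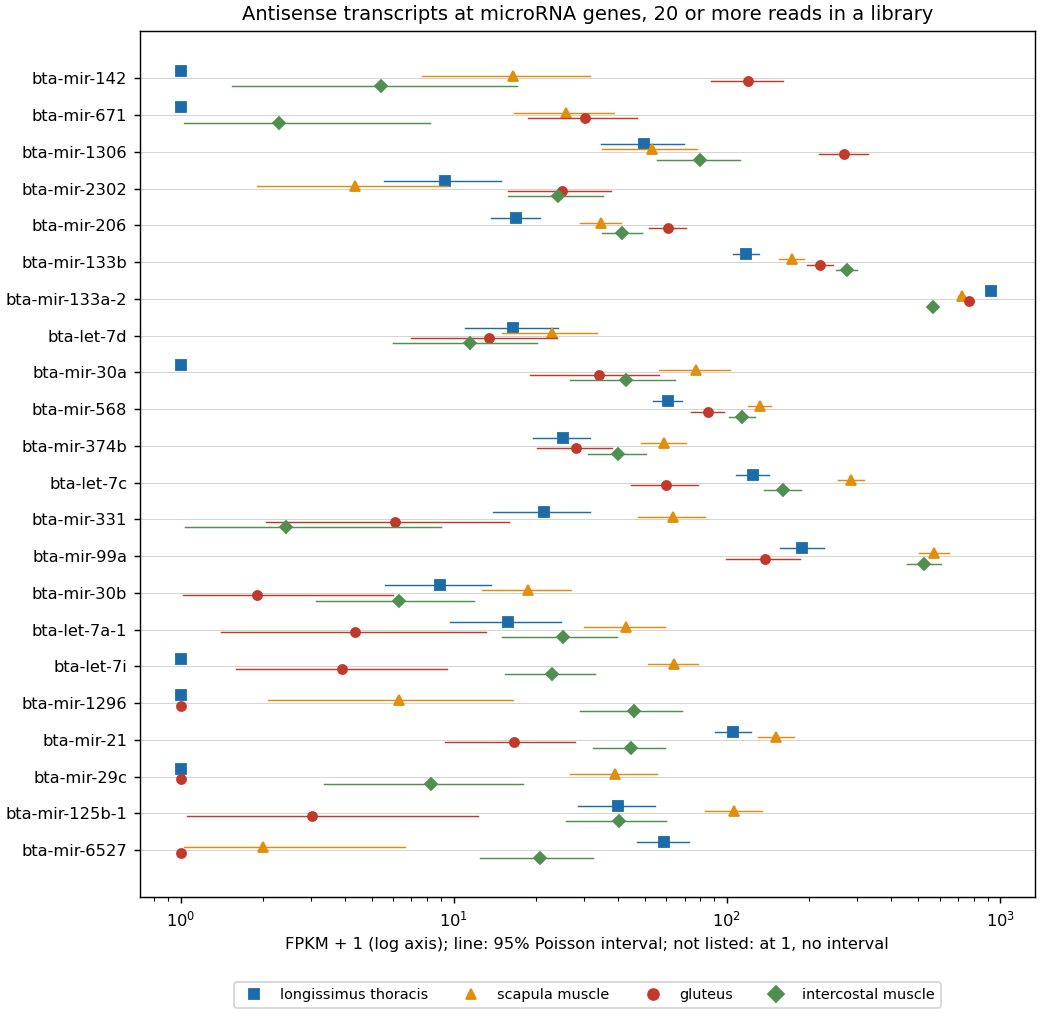
FPKM + 1 (log axis) of the 22 antisense transcripts at microRNA genes with 20 or more reads in a library, sorted by log2 ratio from the top. Symbols are the 4 muscles, lines are 95% Poisson intervals, and a transcript not listed sits at 1 with no interval. Gluteus (red circles) is the rightmost muscle at bta-mir-142 and bta-mir-1306 and the leftmost at bta-mir-21 and bta-let-7c.

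Immediate early genes code for transcription factors and regulators that cells switch on within minutes of a stimulus. At the genes of this and related stress responses, transcripts counted 14 higher (20.9%) and 28 lower (41.8%) of 67. Shares were 18.6% and 23.7% over all transcripts and 17.9% and 26.2% over intronic ones. With 1 other muscle left out these transcripts counted 11 to 12 higher and 38 to 45 lower. Of the 8 antisense transcripts among them with 20 or more reads in a library, 4 were higher and 2 lower, beside 18.3% and 19% of all antisense transcripts with such depth. Opposite JUN, a subunit of the AP-1 factor, the transcript stood at 2477 (2335 to 2626) FPKM in gluteus, 14.8 in longissimus, 1135 (1053 to 1222) in scapula and 786 in intercostal, with a log2 ratio of 1.65 (1.37 to 2.63). Opposite NR4A3, an orphan nuclear receptor that muscle induces with exercise, it stood at 180.2 (165 to 196) FPKM in gluteus, 78.3 (71.3 to 85.8) in longissimus, 1.20 in scapula and 3.57 in intercostal, with a log2 ratio of 5.31 (2.11 to 5.74). Opposite CSRNP1, a nuclear protein induced by axin, it stood at 117 (98.3 to 137) FPKM in gluteus, 8.96 (5.02 to 14.8) in scapula and 4.80 in intercostal and was not listed for longissimus, with a log2 ratio of 4.34 (3.90 to 5.11).

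The fourth was at BTG2, an antiproliferative gene, where the transcript stood at 269.99 (248 to 293) FPKM in gluteus, 92.9 in longissimus, 90.5 in scapula and 99.8 (87.9 to 113) in intercostal, with a log2 ratio of 1.53 (1.48 to 1.55). On the lower side, the transcript opposite KLF6, a zinc finger factor, stood at 55.1 (45.0 to 66.7) FPKM in gluteus, 181 in longissimus, 122 (109 to 136) in scapula and 129 in intercostal, with a log2 ratio of -1.21 (-1.48 to -1.18). A transcript opposite IER5, a regulator of the heat shock response, was not listed for gluteus or longissimus and stood at 144 (107 to 189.7) FPKM in intercostal. Another at the same gene stood at 166 (144 to 191) FPKM in gluteus, 20.02 in longissimus, 225 in scapula and 187 (165 to 211) in intercostal. At KLF9, a glucocorticoid target, the antisense transcript stood at 182 (153 to 214) FPKM in gluteus, 36.0 in longissimus, 374 in scapula and 349 (312 to 389.5) in intercostal. Gluteus was thus highest at JUN, NR4A3, CSRNP1 and BTG2, but not at IER5 or KLF9, and lowest at KLF6.

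**Figure D4:**
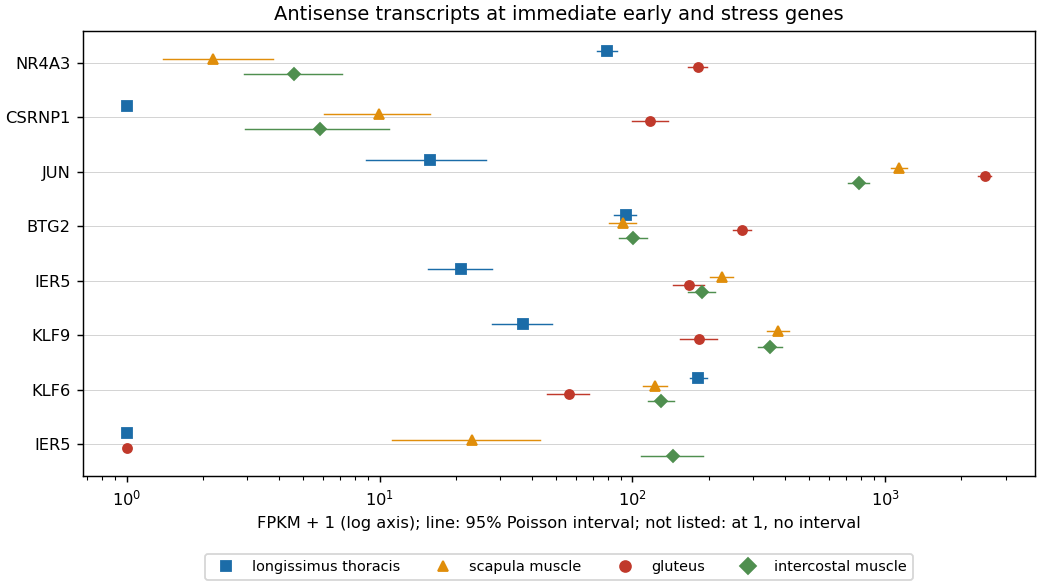
FPKM + 1 (log axis) of the 8 antisense transcripts at immediate early and stress genes with 20 or more reads in a library, sorted by log2 ratio from the top. Symbols are the 4 muscles, lines are 95% Poisson intervals, and a transcript not listed sits at 1 with no interval. Gluteus (red circles) lies farthest right at NR4A3, CSRNP1, JUN and BTG2 and farthest left of the listed values at KLF6.

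Among genes of fuel use, the transcript opposite UCP3, a mitochondrial carrier induced by fasting and fatty acids, had one of the 10 largest absolute differences. It stood at 3958 (3752 to 4172) FPKM in gluteus, 3032 (2902 to 3166) in longissimus, 678 in scapula and 406 in intercostal, with a log2 ratio of 2.54 (1.09 to 2.87). Gluteus and longissimus were both high and scapula and intercostal low. Opposite HK2, the hexokinase that traps glucose in muscle, it stood at 693 (658 to 729) FPKM in gluteus, 458 (438 to 479) in longissimus, 218 in scapula and 307 in intercostal. Opposite PHKB, a subunit of the kinase that starts glycogen breakdown, it stood at 2193 (2126 to 2261) FPKM in gluteus, 3298 (3239 to 3358) in longissimus, 756 in scapula and 644 in intercostal. Longissimus was the nearest muscle in all 3.

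The glucose and glycogen list as a whole counted 31 higher (23%) and 33 lower (24.4%) of 135. The host gene TBC1D4 alone gave 70 of the 135, with 20 higher and 13 lower, so most of the higher calls came from it. Shares were 18.6% and 23.7% over all transcripts and 17.9% and 26.2% over intronic ones. With 1 other muscle left out the list counted 22 to 27 higher and 68 to 82 lower. GYG1, glycogenin, the primer of glycogen synthesis, had an antisense transcript that stood at 1659 (1570.2 to 1751) FPKM in gluteus, 2064 in longissimus, 1155 in scapula and 1699.7 (1618 to 1785) in intercostal. Mitochondrial respiration and fatty acid oxidation genes counted 3 higher (10.7%) and 3 lower (10.7%) of 28 (4 to 5 higher and 11 to 15 lower with 1 other muscle left out). The transcript opposite CYCS, cytochrome c, stood at 208 (193 to 225) FPKM in gluteus, 335 in longissimus, 188 (175 to 202) in scapula and 264 in intercostal, and that opposite TFAM, the mitochondrial genome's packaging and transcription factor, stood at 90.1 (74.7 to 108) FPKM in gluteus, 61.6 (52.4 to 72.0) in longissimus, 53.4 in scapula and 27.1 in intercostal. Neither was called.

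Z-disc and scaffold proteins anchor the filaments of the sarcomere. Of 92 transcripts at Z-disc and sarcomere scaffold genes, 26 (28.3%) were higher in gluteus and 17 (18.5%) lower. Shares were 18.6% and 23.7% over all transcripts and 17.9% and 26.2% over intronic ones. With 1 other muscle left out the list counts became 18 to 23 higher and 25 to 37 lower, so lower calls then outnumbered higher ones. The reference is then a mean of 2 muscles, which adds lower calls where 1 of them lists a transcript. This turn therefore cannot be laid on any muscle. Of the 37 listed in all 4 muscles, 11 were higher and 2 lower, beside 17.4% and 25.2%, and the median log2 ratio was 0.18. Among the most abundant were intronic pieces of NEB, nebulin, the ruler of the thin filament. One (TCONS_00112509) stood at 1207 (1069 to 1357) FPKM in gluteus, 329 in longissimus, 674 (586 to 771) in scapula and 405 in intercostal. A far stronger one (TCONS_00112513) stood at 13252 (12884 to 13628) FPKM in gluteus, 2174 in longissimus, 12404 (12099 to 12715) in scapula and 14861 in intercostal and was not called.

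The most abundant antisense transcripts of this list were not called. That opposite FHL1, a LIM domain protein of muscle, stood at 36771 (36433 to 37111) FPKM in gluteus, 15591 in longissimus, 45532 (45210.2 to 45855) in scapula and 50061 in intercostal, and that opposite ACTN2, the Z-disc alpha-actinin, stood at 8838 (8667 to 9011) FPKM in gluteus, 12314 in longissimus, 7981 (7842 to 8122) in scapula and 15571 in intercostal. Gluteus lay between the other muscles at both. A transcript of LDB3, the Z-disc protein also called ZASP (TCONS_00162640), stood at 184 (140.4 to 236) FPKM in gluteus, 46.9 in longissimus, 77.2 in scapula and 80.9 (55.3 to 114) in intercostal. Another in LDB3 (TCONS_00162638) stood at 74.5 (53.5 to 101) FPKM in longissimus, 23.1 (10.6 to 43.8) in scapula and 129 (94.0 to 174) in intercostal and was not listed for gluteus. Pieces within introns of LDB3 therefore went both ways.

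Fibre type genes gave a mixed picture. Slow-twitch genes counted 38 higher (19.7%) and 61 lower (31.6%) of 193 (24 to 37 higher and 107 to 120 lower with 1 other muscle left out). Of the 193, 189 were intronic, and the calcineurin gene PPP3CA alone gave 108, with 28 higher and 32 lower. Shares were 18.6% and 23.7% over all transcripts and 17.9% and 26.2% over intronic ones. Fast-twitch genes counted 5 higher (31.2%) and 4 lower (25%) of 16 (5 higher and 7 to 8 lower). Within introns of MYH1, the fast IIx myosin heavy chain, one transcript (TCONS_00098304) stood at 114 (83.8 to 153) FPKM in gluteus, 18.1 in longissimus, 82.0 (59.8 to 109.7) in scapula and 31.3 in intercostal, with a log2 ratio of 1.84 (1.001 to 2.17), and another (TCONS_00095941) stood at 77.2 (59.8 to 98.0) FPKM in gluteus, 68.8 (56.8 to 82.6) in longissimus, 105 in scapula and 40.6 in intercostal. In MYLK2, the skeletal myosin light chain kinase, a transcript stood at 504 (421 to 598) FPKM in gluteus, 6.04 in longissimus, 139 in scapula and 264 (209 to 328) in intercostal, with a log2 ratio of 1.85 (1.32 to 2.78). Opposite MYLK4, a related kinase, it stood at 174 (140.3 to 213) FPKM in gluteus, against 108 (85.6 to 135) in scapula, and was not listed for longissimus or intercostal. A transcript in MYH7, the slow myosin heavy chain, was not listed for gluteus or longissimus and stood at 75.2 (48.7 to 111) FPKM in intercostal. These single pieces do not measure the myosin messages, which were not analysed here.

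Genes of calcium handling counted 37 higher (18.3%) and 62 lower (30.7%) of 202 (24 to 33 higher and 109 to 134 lower with 1 other muscle left out). Of the 202, 196 were intronic. The same 108 transcripts of PPP3CA counted in the slow-twitch list, 28 higher and 32 lower, are among the 202, so these lists are not separate results. Shares were 18.6% and 23.7% over all transcripts and 17.9% and 26.2% over intronic ones. Genes of the dystrophin complex counted 25 higher (16.6%) and 36 lower (23.8%) of 151 (19 to 21 higher and 76 to 109 lower), near the shares over all transcripts. In JPH1, junctophilin of the triad junction, an intronic transcript stood at 6.61 (0.801 to 23.9) FPKM in gluteus, 189 in longissimus, 96.9 in scapula and 75.00 (49.4 to 109) in intercostal. Opposite SNTB1, syntrophin beta 1 of the dystrophin complex, the transcript stood at 1195 (1155 to 1236) FPKM in gluteus, 743 (720.3 to 767) in longissimus, 379 in scapula and 263 in intercostal. In SGCD, delta-sarcoglycan, a transcript stood at 108 (82.3 to 138) FPKM in longissimus, 32.3 (17.2 to 55.3) in scapula and 117 (83.9 to 159) in intercostal and was not listed for gluteus. Ubiquitin, atrophy and autophagy genes counted 28 higher (18.1%) and 50 lower (32.3%) of 155 (18 to 21 higher and 81 to 107 lower), with the higher share again near that over all transcripts. Of the 155, 150 were intronic, the class with 26.2% lower. A pair of intronic transcripts in NEDD4, a ubiquitin ligase, were listed for gluteus alone, at 125 (85.8 to 175) and 137 (94.5 to 193) FPKM, as was one in the ubiquitin ligase UBE3A at 149 (104 to 207) FPKM. The antisense transcript at NEDD4 stood at 121 (109.7 to 134) FPKM in gluteus, 110.00 in longissimus, 117 (107 to 127) in scapula and 80.8 in intercostal, and was not called.

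Position genes mark where along the body and limb a muscle formed, and posterior HOX genes are known from the hindlimb. Transcripts at these genes counted 7 higher (17.9%) and 16 lower (41%) of 39 (5 to 7 higher and 25 to 27 lower with 1 other muscle left out). Shares were 18.6% and 23.7% over all transcripts and 17.9% and 26.2% over intronic ones. The transcript opposite HOXC10, a posterior HOX gene, stood at 82.5 (65.4 to 103) FPKM in gluteus, against 48.7 (39.2 to 59.8) in longissimus, and was not listed for scapula or intercostal. It was thus listed for the muscles of rump and back alone. That opposite TBX15, a limb and fast muscle factor, stood at 579 (549 to 610.3) FPKM in gluteus, 173 in longissimus, 446 (424 to 469.99) in scapula and 406 in intercostal. An intronic piece of MEOX2, a homeobox gene of limb muscle (TCONS_00188103) stood at 11.1 (5.72 to 19.4) FPKM in gluteus, 3.36 (1.35 to 6.92) in longissimus, 37.9 in scapula and 48.9 in intercostal.

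The summed level of connective tissue markers was lowest in gluteus. Fibroblast and matrix genes counted 6 higher (17.1%) and 15 lower (42.9%) of 35 (4 to 5 higher and 19 to 28 lower with 1 other muscle left out). Shares were 18.6% and 23.7% over all transcripts and 17.9% and 26.2% over intronic ones. The summed level of the list was 1345 FPKM in gluteus, 2533 in longissimus, 6627 in scapula and 3043 in intercostal. The most abundant transcript of the list lay opposite COL3A1, a fibrillar collagen, and stood at 954 (908 to 1003) FPKM in gluteus, 1156 (1119 to 1194) in longissimus, 5658 in scapula and 2596 in intercostal. In FBN1, fibrillin of elastic fibres, a transcript (TCONS_00017747) stood at 2.18 (0.0552 to 12.2) FPKM in gluteus, 75.9 in longissimus, 83.1 in scapula and 44.0 (28.2 to 65.4) in intercostal. In a pooled tissue fewer cells of a type and less RNA per cell cannot be told apart. COL1A2, LUM and FN1 had no transcript, and 8 of 13 genes of the list had one.

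Markers of other cells were few. Adipocyte genes counted 1 higher (10%) and 6 lower (60%) of 10 (0 to 1 higher and 7 to 9 lower with 1 other muscle left out). Shares were 18.6% and 23.7% over all transcripts and 17.9% and 26.2% over intronic ones. Summed levels of the list were 17.4 FPKM in gluteus, 42.3 in longissimus, 258 in scapula and 428 in intercostal. The 10 transcripts came from introns of GPAM, PLIN4 and PPARG, while ADIPOQ, LEP and PLIN1 had no transcript. Endothelial genes counted 3 higher (18.8%) and 2 lower (12.5%) of 16 (2 higher and 6 to 10 lower), smooth muscle and pericyte genes 1 higher (7.14%) and 2 lower (14.3%) of 14 (1 to 2 higher and 7 to 8 lower) and leukocyte genes 3 higher (25%) and 4 lower (33.3%) of 12 (1 to 2 higher and 7 lower). Nerve and Schwann cell genes counted 4 higher (44.4%) and 0 lower (0%) of 9 (2 to 4 higher and 2 lower) and satellite cell genes 2 higher (50%) and 0 lower (0%) of 4 (0 to 2 higher and 0 to 2 lower). The erythroid list and the list of known long noncoding RNAs had no transcript.

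Intronic transcripts crowd into long genes, and at most genes rich in listed transcripts more were called lower than higher. Of 58 genes with 20 or more called transcripts of any class, 51 had more lower than higher and 7 had more higher. Most transcripts of these genes were intronic, but 0 of 39 were at TIMP3 and 103 of 153 at CTNNA3. Lower calls also outnumber higher ones over all transcripts, where 44% of the calls were higher, and over all intronic transcripts, where 40.6% were. The median of that share over the 58 genes was 31.65%. With 1 other muscle left out, 56 to 57 had more lower and 1 had more higher, and that gene was BCL2, the inhibitor of cell death. BCL2 counted 22 higher and 1 lower of 33 (20 to 22 higher and 4 to 8 lower with 1 other muscle left out), and its transcripts listed numbered 26 in gluteus, 18 in longissimus, 13 in scapula and 13 in intercostal. Summed over the gene in RPM (recovered reads scaled to the library total, with no scaling to length), the level was 567 (524 to 613) in gluteus, 256 in longissimus, 233 in scapula and 275 in intercostal. The gluteus interval ran from 524 to 613 and lay above that of every other muscle. The BCL2 piece with the most gluteus FPKM among those called (TCONS_00144480) stood at 86.0 (58.0 to 123) FPKM in gluteus, 32.8 (20.5 to 49.6) in longissimus, 21.0 in scapula and 26.5 in intercostal.

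NFIA, a nuclear factor I gene that shapes fat and muscle development, was the opposite case. It counted 10 higher and 69 lower of 146 (8 to 10 higher and 89 to 115 lower with 1 other muscle left out). Its listed transcripts numbered 34 in gluteus, 78 in longissimus, 117 in scapula and 83 in intercostal. Its summed level in RPM was 268 (239 to 300.5) in gluteus, 1122 in longissimus, 1523 in scapula and 985 in intercostal. The related NFIB counted 4 higher and 21 lower of 35 (3 to 4 higher and 24 to 28 lower), and its RPM sum was 59.6 (46.1 to 75.8) in gluteus, 189 in longissimus, 281 in scapula and 184 in intercostal. FOXP1, a forkhead repressor, counted 3 higher and 19 lower of 39 (2 to 3 higher and 27 to 34 lower with 1 other muscle left out) with an RPM sum of 74.9 (59.7 to 92.9) in gluteus, 162 in longissimus, 357 in scapula and 243 in intercostal. These sums are scaled to each library's total, and for all 3 genes gluteus was the lowest muscle.

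Other transcript-rich hosts lay between. CMSS1 counted 15 higher and 70 lower of 195 (12 to 14 higher and 112 to 134 lower with 1 other muscle left out), with an RPM sum of 1436 (1366 to 1508) in gluteus, 2266 in longissimus, 2523 in scapula and 1616 in intercostal. ZBTB20, a zinc finger repressor, counted 24 higher and 62 lower of 157 (16 to 22 higher and 89 to 122 lower), with 488 (447 to 531) in gluteus, 870.4 in longissimus, 1536 in scapula and 685 in intercostal. PALLD, palladin of the actin skeleton, counted 36 higher and 50 lower of 143 (23 to 33 higher and 72 to 75 lower with 1 other muscle left out), with 1937 (1856 to 2021) in gluteus, 1629 in longissimus, 2394 in scapula and 1856 in intercostal. For PALLD gluteus thus lay within the range of the other muscles, although more of its pieces were called lower. PPP3CA, the catalytic subunit of calcineurin, counted 28 higher and 32 lower of 108 (19 to 26 higher and 53 to 65 lower with 1 other muscle left out). TCF12, a helix-loop-helix factor, counted 25 and 34 of 116 (19 to 22 higher and 61 to 72 lower with 1 other muscle left out). PRKG1, a cGMP-dependent kinase, counted 33 and 52 of 216 (23 to 31 higher and 115 to 156 lower with 1 other muscle left out), and CPED1 31 and 38 of 117 (20 to 26 higher and 54 to 75 lower with 1 other muscle left out).

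**Figure D5:**
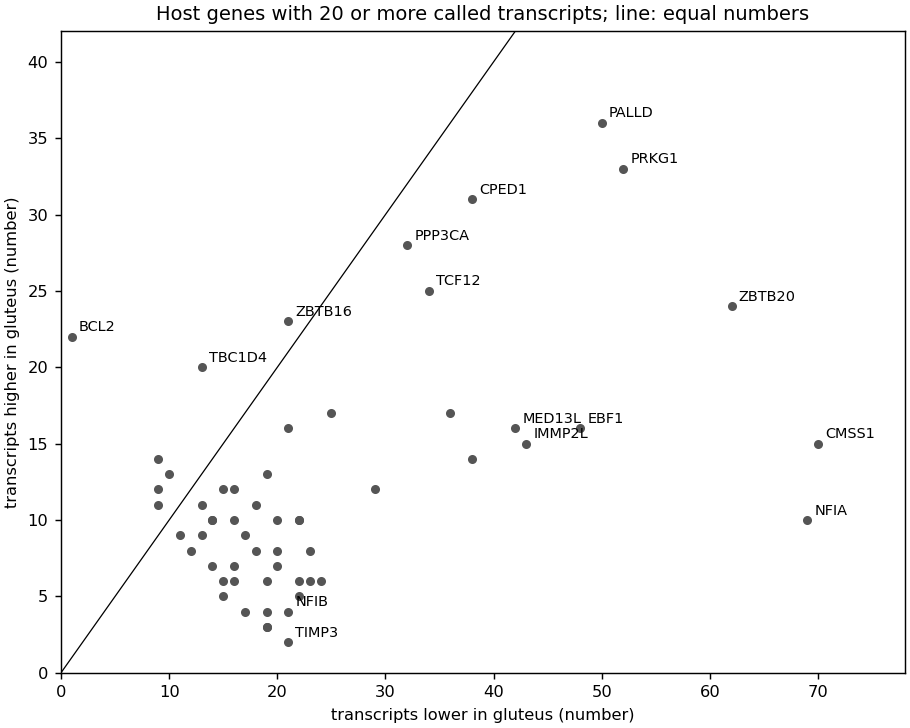
Number of transcripts higher in gluteus (vertical axis) against number lower (horizontal axis) for the 58 genes with 20 or more called transcripts, with the line of equal numbers. Each point is a gene. BCL2 stands far left of the line with 22 higher and 1 lower, NFIA and CMSS1 far right with 69 and 70 lower, and 51 of the 58 points lie right of the line.

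Summed over transcripts, 120 of the 1571 genes with 5 or more transcripts were 2-fold higher in gluteus and 692 were 2-fold lower, with a median log2 ratio of sums of -0.77. With 1 other muscle left out 73 to 132 were higher and 675 to 781 lower, and the 73 came without intercostal. None of the transcripts of 143 of these genes was listed for gluteus, against 55 genes for intercostal, 53 for longissimus and 17 for scapula. The largest log2 ratios of sums were at DCSTAMP, HMCN1, TMEM245, CCSER1 and HDGFRP3, each over a median of 0 in the other muscles. DCSTAMP had 6 transcripts, all listed for gluteus alone, with 50.6 (38.2 to 65.7) RPM. HMCN1, hemicentin of the matrix, had 51.5 (39.0 to 66.7) in gluteus and 27.8 in scapula, and was not listed elsewhere. TMEM245 was listed for gluteus and scapula alone, and with 1 other muscle left out the log2 ratio of sums was as low as 2.12 at HMCN1 and 1.94 at TMEM245. CCSER1 and HDGFRP3, a growth factor-related gene, were listed for gluteus and longissimus alone, and longissimus held the larger FPKM sum at both. At CCSER1 the sum was 107 FPKM over 2 transcripts in gluteus and 206 over 8 in longissimus, and at HDGFRP3 it was 72.7 over 3 in gluteus and 130.3 over 5 in longissimus. Leaving out 1 other muscle took the log2 ratio to 0.06 and 0.15, so neither call holds.

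At the other end, KIF1B, a kinesin motor of mitochondria and synaptic vesicles, had 21 transcripts and none listed for gluteus. Its listed transcripts numbered 12 in longissimus, 14 in scapula and 3 in intercostal, with 113, 105 and 11.4 RPM. KLF7, a zinc finger factor, PDE1A, a phosphodiesterase, PPP2R2A, a subunit of protein phosphatase 2A, and LDB2, a LIM domain cofactor, were likewise not listed for gluteus. LDB2 had 28 of its 32 transcripts listed in scapula, 5 in longissimus and 7 in intercostal. BTBD11, an ankyrin repeat protein picked after its values were seen, counted 8 higher and none lower of 9, and its antisense transcript stood at 113 (97.6 to 129.6) FPKM in gluteus, 24.5 (19.5 to 30.4) in longissimus, 1.67 in scapula and 0.956 in intercostal, with a log2 ratio of 5.41 (3.01 to 5.62).

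Among intronic transcripts 2-fold above every muscle, the largest log2 ratio was in IQWD1 (RefSeq DCAF6), a nuclear receptor cofactor, listed for gluteus alone at 255 (194 to 330.2) FPKM. Those in FRMD4A, a scaffold of cell polarity, and CLCN3, a chloride transporter of endosomes, were also listed for gluteus alone, at 188 (139 to 249) and 168 (126 to 219.6) FPKM. Those in KPNA4, an importin, and PAFAH1B1, a dynein regulator, were listed at 188 (116 to 287) and 158 (116 to 211) FPKM and in 1 other muscle each. Of the intronic transcripts 2-fold above every muscle with 20 or more gluteus reads, 214 of 622 were listed for gluteus alone. For intergenic ones this was 185 of 785, and for antisense ones 7 of 119.

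The intronic transcripts missing from gluteus while each other muscle had 20 or more reads numbered 28 of 484, and the intergenic ones 40 of 1586. In ZBTB16, a zinc finger factor, one (TCONS_00065614) stood at 122 (90.2 to 162) FPKM in longissimus, 86.3 (55.3 to 128) in scapula and 111 (73.3 to 162) in intercostal and was not listed for gluteus. In PDZRN3, a ubiquitin ligase of muscle differentiation, one (TCONS_00128116) stood at 97.3 (77.5 to 121) FPKM in longissimus, 142 (114 to 176) in scapula and 58.8 (39.9 to 83.4) in intercostal and was not listed for gluteus. Others lay in DDX42, an RNA helicase, PDS5A, a cohesin regulator, and PLXDC2, a plexin domain protein. The strongest called intronic transcript lay in TRRAP, a scaffold of histone acetyltransferase complexes, which stood at 11794 (11356 to 12245) FPKM in gluteus, 18234 (17840.1 to 18635) in longissimus, 33554 in scapula and 46299.6 in intercostal, with a log2 ratio of -1.51 (-1.76 to -1.13). It was lowest in gluteus and highest in intercostal.

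Intergenic transcripts have no gene to name them by. The 5 of largest log2 ratio above every muscle were TCONS_00247474, which stood at 247 (196 to 307) FPKM in gluteus, against 49.1 (33.4 to 69.7) in longissimus, and was not listed for scapula or intercostal, TCONS_00125617, which stood at 175 (139.7 to 217) FPKM in gluteus, against 48.9 (33.4 to 69.0) in scapula, and was not listed for longissimus or intercostal, TCONS_00194588, which stood at 152 (108 to 207) FPKM in gluteus, against 11.4 (3.11 to 29.2) in scapula, and was not listed for longissimus or intercostal, and TCONS_00206177 and TCONS_00111824, listed for gluteus alone at 145 (117 to 177) and 145 (109 to 188) FPKM. Those missing from gluteus were led by TCONS_00197857, which stood at 58.3 (42.4 to 78.3) FPKM in longissimus, 48.6 (31.7 to 71.2) in scapula and 57.8 (38.1 to 84.2) in intercostal and was not listed for gluteus. The 4 others of that kind, TCONS_00178345, TCONS_00006094, TCONS_00129426 and TCONS_00048489, ran from 25.2 to 79.6 FPKM in longissimus. Their place in the genome was not determined here.

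Calls near the 2-fold line depend on small differences. Among transcripts listed in all 4 muscles, the log2 ratio just inside the line was 1.001 and just outside it 0.999 on the higher side, and -1.003 and -0.99996 on the lower side.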

How the data were processed

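Per the labels' protocols, total RNA of each muscle was pooled from 3 animals and sequenced by standard Illumina methods. The submitters' processing notes name build UMD3.1 and the tools Cufflinks 2.1.1 and TopHat2 2.0.9. The authors deposited 1 FPKM value per transcript and library, listing values above 0 only. Identifiers give gene and Cufflinks class. For strand, filters and annotation version, nothing is stated in the sources used here.

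Whole reads were recovered for all 115374 values by finding, for each library, the smallest total at which each value equals whole reads divided by a whole length. Recovered reads and lengths are lower bounds, so intervals are at their widest. Reads came to 99% to 103% of the totals. What the totals count is not given. Log2 ratios, size calls and exact Poisson intervals used Python 3.11.15, numpy 2.4.6, pandas 2.3.3 and scipy 1.17.1, and the recovery was tested on simulated data. Of 6589 gene names, 5987 were found in the RefSeq table (ARS-UCD2.0), used for names only.

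Transcripts named were, per class and direction, the 5 of largest ratio 2-fold beyond every muscle with 20 or more reads, the 10 of largest absolute difference, the 5 genes at each end of the ratio of sums and of the called counts, and at most 4 called members per list. Other transcripts and genes shown were picked after their values were seen. A result that these rules select is not reported here. Members and the 20 gene lists were chosen with earlier results of these data known. Alternatives among transcripts listed in all 4 muscles, for host genes and for the split small RNA lists were added after seeing the data.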

Additional observations from a re-analysis of the deposited data

How the results depend on the processing

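Each alternative was run for the results it concerns: 15 for class and list counts, 8 of these for named transcripts as well, and sums of recovered reads for gene sums. Taking the mean of the other muscles gave 46765 lower transcripts (25352 intergenic, 20520 intronic, 893 antisense). Without longissimus, scapula or intercostal in the reference the lower counts were 33846, 34259 and 41447 in all, 17790, 18721 and 22465 for intergenic, 15301, 14797 and 18184 for intronic and 755, 741 and 798 for antisense transcripts. A pseudocount of 10 FPKM gave 8627 lower (4261 intergenic, 4056 intronic, 310 antisense), and, chosen after seeing the data, 1177 lower among transcripts listed in all 4 muscles, 599 of them intergenic. With 20 or more reads in a library 4450 were higher and 8437 lower (2283 and 4006 intergenic, 1826 and 4077 intronic, 341 higher antisense). Beyond each other muscle 6064 were higher and 3254 lower (3438 and 1654 intergenic, 2397 and 1479 intronic, 229 and 121 antisense). With Poisson intervals apart from each other muscle 3548 were higher and 793 lower (1934 and 396 intergenic, 1404 and 320 intronic, 210 and 77 antisense). A 4-fold threshold left 311 higher and 287 lower antisense transcripts. Listed in all 4 muscles were 1250 higher and 1808 lower (710 and 1006 intergenic, 336 and 622 intronic, 204 and 180 antisense). The higher share of calls was 44% as reported, 15.6% with the mean, and 21.8%, 22.9% and 18.2% without longissimus, scapula and intercostal. With the mean or with a muscle left out, any listing among the muscles kept raises the reference. The share was 51.1% with a pseudocount of 10 FPKM, 65.1% beyond each muscle, 81.7% with intervals apart and 44.6% and 43.8% after the rescalings. Beyond each muscle and with intervals apart, a transcript that any other muscle does not list cannot be called lower. Those rules themselves tilt the share upward.

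Of 816 values of the named called transcripts, 597 moved by less than their counting error, 214 by more and 5 changed sign. FLT1 TCONS_00038236, an intronic transcript, had log2 ratios of -2.93 with the mean and -3.49 without scapula and without intercostal, and NEB TCONS_00104350 -0.0901 without scapula and -0.103 without intercostal. Of 750 list counts 470 stayed within 1.5 times and 280 did not. Of 18 gene results retaken as sums of recovered reads, 7 were scored as the same, 11 as moved and 0 as reversed. Causes were not tested. No paired analysis was possible because each muscle has 1 pooled library. With 1 pooled library a muscle, no difference can be separated from animals, pooling or library preparation, and a level under about 3 FPKM on a short piece is 1 gluteus read.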

Other observations

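Some antisense transcripts called higher in gluteus were not 2-fold above every other muscle. Of 290 such antisense transcripts, the highest of the other muscles was longissimus for 110, scapula for 104 and intercostal for 76. The examples below were picked after their values were seen. With longissimus, the transcript opposite PDE4D, a cAMP phosphodiesterase, stood at 2186 (2148 to 2225) FPKM in gluteus, 1791 (1766 to 1817) in longissimus, 264 in scapula and 596 in intercostal. Opposite HOMER1, a scaffold of calcium signalling, it stood at 240.1 (225 to 256) FPKM in gluteus, 263 (251 to 275) in longissimus, 61.5 in scapula and 58.3 in intercostal.

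With scapula, the transcript opposite HIF1AN, the asparaginyl hydroxylase that holds back HIF, stood at 284 (264 to 304) FPKM in gluteus, 21.8 in longissimus, 161 (149 to 175) in scapula and 106 in intercostal. That opposite H1FX, a linker histone, stood at 172 (139 to 209) FPKM in gluteus, 135 (110.3 to 163) in scapula and 35.3 in intercostal and was not listed for longissimus. With intercostal, the transcript opposite NPR3, the natriuretic peptide clearance receptor, stood at 223 (199.8 to 247) FPKM in gluteus, 62.4 in longissimus, 104 in scapula and 148 (131 to 166) in intercostal, and that opposite AKT2, the insulin-signalling kinase, stood at 138 (118 to 159.98) FPKM in gluteus, 67.4 in scapula and 79.3 (65.5 to 95.1) in intercostal and was not listed for longissimus.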
